A study of Mus musculus with 12 samples.

Results

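Lung RNA taken 11 days after irradiation was compared with lung RNA taken 8 days after irradiation, an early step in the time course of irradiated mouse lung. The members are the 3 count libraries of the 11 d group and the 3 of the 8 d group, taken by their sample labels, which makes 6 of the 12 libraries in the series. The other libraries are 3 of lung that was not irradiated and 3 taken at 14 d. All irradiated tissue came from the irradiated areas only, per the series description. Total RNA was measured by RNA sequencing, and no genotype, transgene or treatment other than irradiation is named in the labels. For dose, strain, age and sex nothing is given in the sources used here. Replicates are numbered, with no word on whether each was its own animal. The p-values therefore cover the spread among the libraries at hand, and that spread may be technical. The comparison addresses how lung transcripts changed between the 8 d and the 11 d samples, and how far that change rests on single libraries.

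Ionising radiation kills dividing and endothelial cells of the lung, and debris and lipid are then cleared by macrophages, some resident in the airspace, some in the interstitium and some newly made from blood monocytes. Macrophages that take up large amounts of lipid and membrane carry a known set of transcripts, including the glycoprotein Gpnmb, the lipid receptor Trem2 and osteopontin (Spp1), and build more lysosomes. Lysosome genes are driven in part by the MiT/TFE transcription factors, which bind E-box and M-box sites and are held in check by folliculin. Immediate early genes such as Egr1 and Fos are transcribed within minutes of a stimulus, without new protein synthesis.

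The 6 libraries held 19624554 to 24502421 counts, and 18716 to 19151 genes were detected in each. Ribosomal precursor Rn45s took 2.788% to 4.002% of counts at 8 d and 3.484% to 6.273% at 11 d, with the highest share in replicate 2 of 11 d. Haemoglobin genes took 1.217% to 1.803% at 8 d and 0.6671% to 1.262% at 11 d. Defining markers of lung were present in all 6 libraries, with 10300 to 16700 CPM (a gene's counts scaled to a common library size with TMM factors) for surfactant gene Sftpc and 1850 to 3030 CPM for Ager of type 1 alveolar cells. Neither passed the edgeR test (log2 changes -0.24 and -0.17). Replicate 3 of 8 d stood apart in heart muscle transcripts. Its summed level of the muscle list was 316.8 CPM, against 82.38 and 89.91 CPM in the other 8 d libraries and 73.12 to 131.2 CPM at 11 d. Myh6, the cardiac myosin heavy chain, stood at 71.8 CPM there against 2.86 and 3.87 CPM in the other 8 d libraries. Bpifa1, a secreted protein of airway epithelium, stood at 144 CPM there against 2.58 and 1.17 CPM. Results are therefore given with and without this library. Over all genes tested it was not the outlying library of its group. In limma-voom a sample quality weight is larger for a library that varies less around its group. It was 2.649 in replicate 3 of 8 d, the highest of the 12 libraries, against 0.549 and 0.372 in replicates 1 and 2 of 8 d.

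On the first principal component of the 6 libraries, which carried 39% of the variance, the groups did not overlap. Replicates 1 and 3 of 8 d lay at -37.87 and -33.51, replicate 2 of 8 d at 3.48, replicates 3 and 2 of 11 d at 10.83 and 14.1, and replicate 1 of 11 d at 42.96. On this axis the middle libraries of both groups were nearer to each other than to the outer libraries of their own group. The second component, with 21.4% of the variance, separated replicate 2 of 8 d at -42.31 from replicate 1 of 8 d at 21.47, with the 11 d libraries between 4.8 and 11.81.

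**Figure D1:**
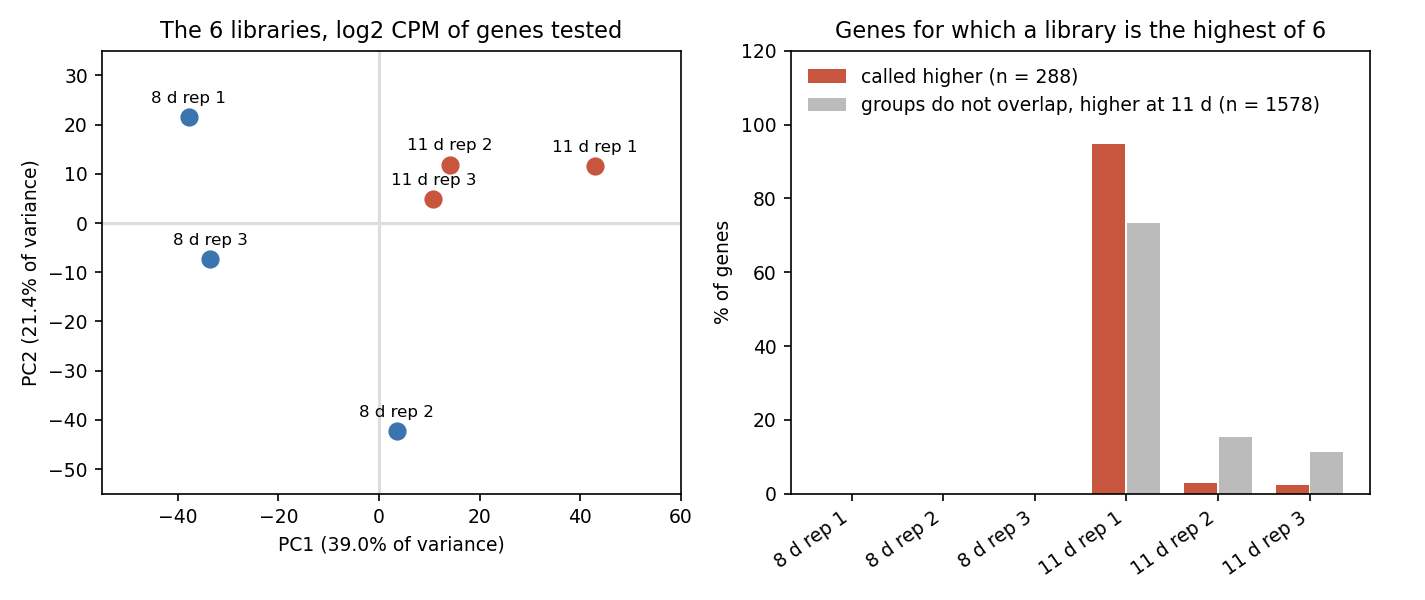
Left, the first 2 principal components of the 6 libraries (each axis with its share of variance), with 1 point per library. Right, for each library the percent of genes for which it was the highest of the 6, among the 288 genes called higher and among the 1578 genes tested whose 11 d libraries were all above their 8 d libraries. Replicate 1 of 11 d was highest for 94.8% of the former and 73.3% of the latter, and no 8 d library can be highest in either set.

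Genes of macrophages, lysosomes and innate receptors rose between 8 d and 11 d, and a smaller number of immediate early genes and single vascular and stromal genes fell. Of 16484 genes tested, 353 passed (edgeR quasi-likelihood test fitted on all 12 libraries, n = 3 per group, threshold 0.05 on the adjusted p), which is 2.14%. Of these, 288 rose (1.75% of genes tested) and 65 fell (0.394%). A change of 2-fold or more was seen in 155 rises and 27 falls. The median log2 change of all genes tested was -0.01, a value that TMM scaling holds near 0, so that changes are relative to the bulk of genes. Rises made up 81.6% of calls. With library size alone in place of TMM scaling there were 186 rises and 121 falls, 60.6% rises, around a median of all genes of -0.10. At this depth 2600 genes had an unadjusted p below 0.05, and 5 had an adjusted p below 0.01, all of them higher at 11 d. Groups whose 3 libraries do not overlap were found for 18.3% of all genes tested, 9.57% higher and 8.72% lower, and for all 353 called genes.

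**Figure D2:**
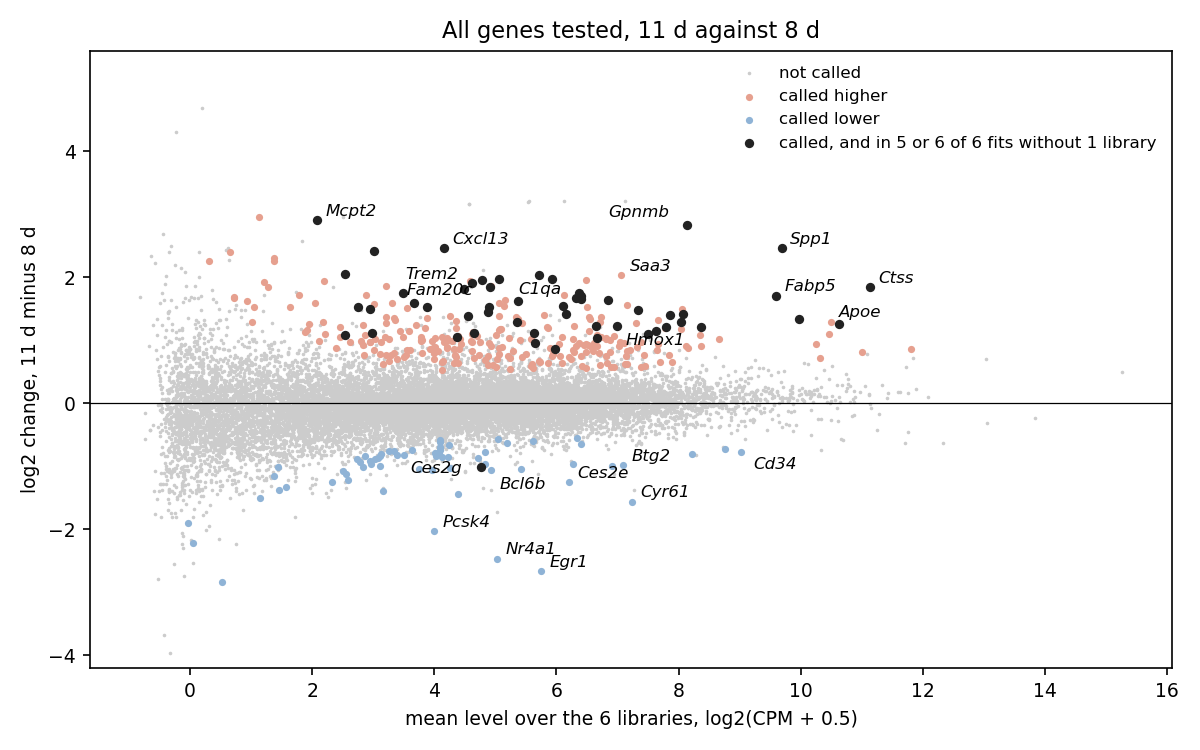
Log2 change from 8 d to 11 d for each gene tested against its mean level, log2(CPM + 0.5), over the 6 libraries. Coloured points passed the test (288 higher, 65 lower) and black points are the 53 genes that also passed in at least 5 of the 6 fits that leave out 1 library.

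How many genes passed depended on which library was in the fit. With replicate 3 of 8 d left out 2 genes passed (0.012% of those then tested), and with replicate 1 of 11 d left out 54 passed (0.324%). Leaving out replicate 1 of 8 d gave 207 (1.24%), replicate 2 of 11 d 269 (1.61%), replicate 3 of 11 d 403 (2.41%) and replicate 2 of 8 d 545 (3.26%). The last of these is the library nearest to the 11 d group on the first component. With replicate 2 of 8 d and replicate 1 of 11 d both left out, a setting chosen after the data were seen, 116 genes passed (0.697%), of which 98 were among the 353. The group with 2 libraries left is assumed in each such fit to vary like the other groups.

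Since the groups of all 353 called genes do not overlap, leaving out 1 library could not turn their direction, and only the size and the p could change. In each of the 6 fits that leave out 1 library all 353 had an unadjusted p below 0.05, a description of genes that were called on the same libraries. Without replicate 3 of 8 d, 1826 genes had an unadjusted p below 0.05 and 256 of the 288 rises and 58 of the 65 falls had an adjusted p below 0.20. The largest unadjusted p among the calls was 3.58e-06 in that fit and 0.00107 in the fit of all libraries (edgeR quasi-likelihood test with Benjamini-Hochberg adjustment). The median log2 change of the 288 rises was 1.03 with all libraries, 0.95 without replicate 3 of 8 d and 0.79 without replicate 1 of 11 d. For the 65 falls it was -0.93, -0.89 and -0.86. The tool mattered as well. DESeq2 called 857 genes with all libraries (5.2%, 600 higher and 257 lower) and 330 without replicate 3 of 8 d, of which 287 were among the 353, while limma-voom called 340 and 2. Without replicate 1 of 11 d DESeq2 called 270 and limma-voom 66.

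**Figure D3:**
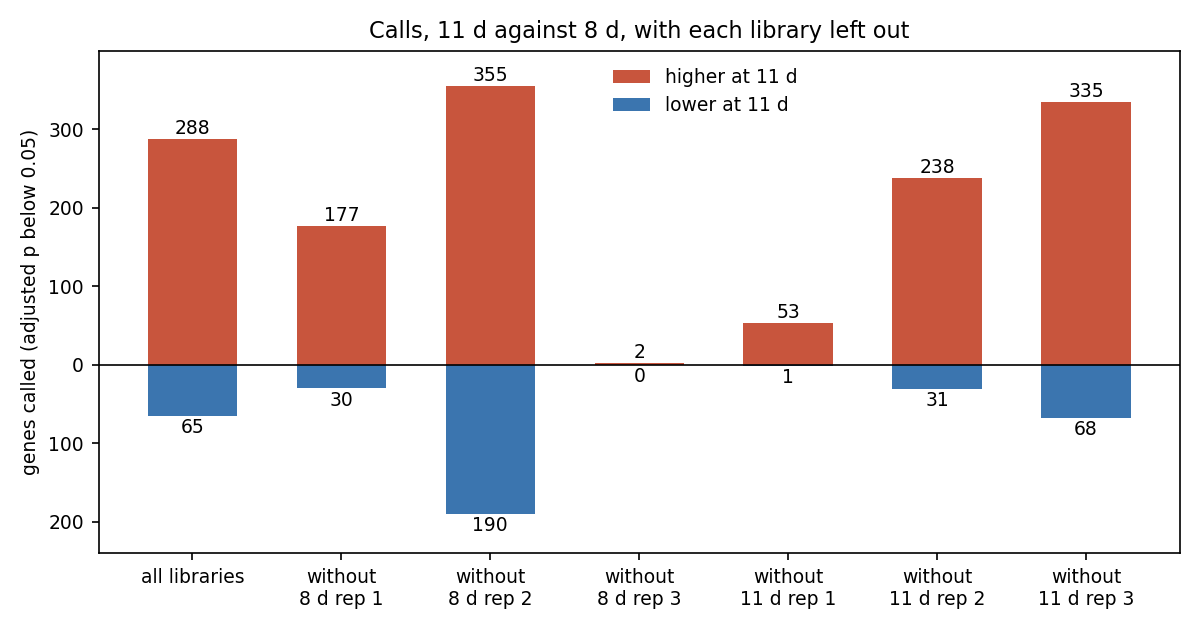
Number of genes called higher (up) and lower (down) at an adjusted p below 0.05 in the fit of all libraries and in the 6 fits with 1 library left out. The sum of both bars ranges from 2 genes without replicate 3 of 8 d to 545 without replicate 2 of 8 d.

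Called in all 6 of these fits were Gpnmb and Fam20c, and 53 genes (0.322% of those tested) were called in at least 5. Fam20c is on none of the gene lists, so of the list members below only Gpnmb passed without replicate 3 of 8 d. Of the 288 rises, 118 passed in at least 4 fits and 91 in at most 2. Of the 65 falls, 13 passed in at least 4 and 46 in at most 2, and the only fall among the 53 was Ces2g, a carboxylesterase. Replicate 1 of 11 d was the highest of the 6 libraries for 273 of the 288 rises (94.8%), and replicate 3 of 8 d the lowest for 189 of them (65.6%). Among all 1578 genes tested with every 11 d library above every 8 d library, called or not, these shares were 73.3% and 43.9%. Replicate 1 of 11 d was the lowest for 38 of the 65 falls. Relative to the 8 d mean, the median log2 level of the 288 rises was 1.35 in replicate 1 of 11 d, 0.824 in replicate 2 and 0.763 in replicate 3, while the 8 d libraries lay at 0.0516, 0.11 and -0.152. The 11 d libraries thus differed in the size of the rise, while its sign in each was fixed by the choice of genes.

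Markers of lipid-associated macrophages rose. Of 16 markers 11 rose and none fell, with a median log2 change of 1.18, and all 16 had a log2 change above 0. Without replicate 3 of 8 d 1 of them passed (Gpnmb), and without replicate 1 of 11 d 8 passed, with a median of 0.92. The summed level of the list was 4087 to 5271 CPM at 8 d and 8946 to 15530 CPM at 11 d, with the 11 d libraries all above the 8 d libraries. In bulk tissue more cells of a type and more RNA per cell cannot be told apart.

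Gpnmb encodes a transmembrane glycoprotein of lipid-loaded macrophages and lies in mm10 at chromosome 6, 49036546 to 49070929, plus strand. It stood at 90.0, 65.2 and 54.5 CPM at 8 d and at 800, 331 and 356 CPM at 11 d. Every 11 d library was above every 8 d library, and replicate 1 of 11 d was far above the other two. The log2 change was 2.83 (SE 0.30, adjusted p = 0.00165, edgeR quasi-likelihood test). Over all alternatives its adjusted p ran from 7.06e-26 to 0.0299, the last without replicate 3 of 8 d. Its mean was 19.1 ± 1.36 CPM without irradiation (SD, n = 3) and 1080 ± 173 CPM at 14 d.

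Fam20c encodes the Golgi kinase that phosphorylates secreted proteins, osteopontin among them, and lies at chromosome 5, 138754514 to 138810077, plus strand. It stood at 14.5, 12.1 and 12 CPM at 8 d and 63.5, 40.4 and 35.1 CPM at 11 d, again with no overlap. Its log2 change was 1.85 (SE 0.20, adjusted p = 0.00165, edgeR), and over all alternatives the adjusted p ran from 7.18e-17 to 0.0404. Its unirradiated mean was 9.84 ± 0.204 CPM. Spp1, the secreted phosphoprotein osteopontin, stood at 243, 348 and 171 CPM at 8 d and 1970, 1000 and 1220 CPM at 11 d, a log2 change of 2.46 (SE 0.34, adjusted p = 0.0105, edgeR). The ranges of both groups were far apart, and the call was lost in 1 of the 6 fits, that without replicate 3 of 8 d.

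Trem2, a receptor for lipids and apolipoproteins, stood at 11.8, 11.8 and 6.92 CPM at 8 d and 60.3, 24.7 and 29.3 CPM at 11 d, a log2 change of 1.91 (SE 0.29, adjusted p = 0.0105, edgeR). Fabp5, a fatty acid carrier, stood at 323, 459 and 306 CPM at 8 d and then at 1790, 935 and 832 CPM at 11 d, a log2 change of 1.71 (SE 0.29, adjusted p = 0.0117, edgeR). In both genes replicate 1 of 11 d was the highest and the other 11 d libraries still exceeded all of 8 d. The galectin gene Lgals3 rose by 1.21 (SE 0.19), the lipid droplet coat gene Plin2 by 1.14 (SE 0.19), the macrophage elastase Mmp12 by 1.22 (SE 0.22) and the apolipoprotein gene Apoe by 1.30 (SE 0.27), all log2. Cd36, the fatty acid uptake receptor, did not pass, with a log2 change of 0.21 (adjusted p = 0.541, edgeR).

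**Figure D4:**
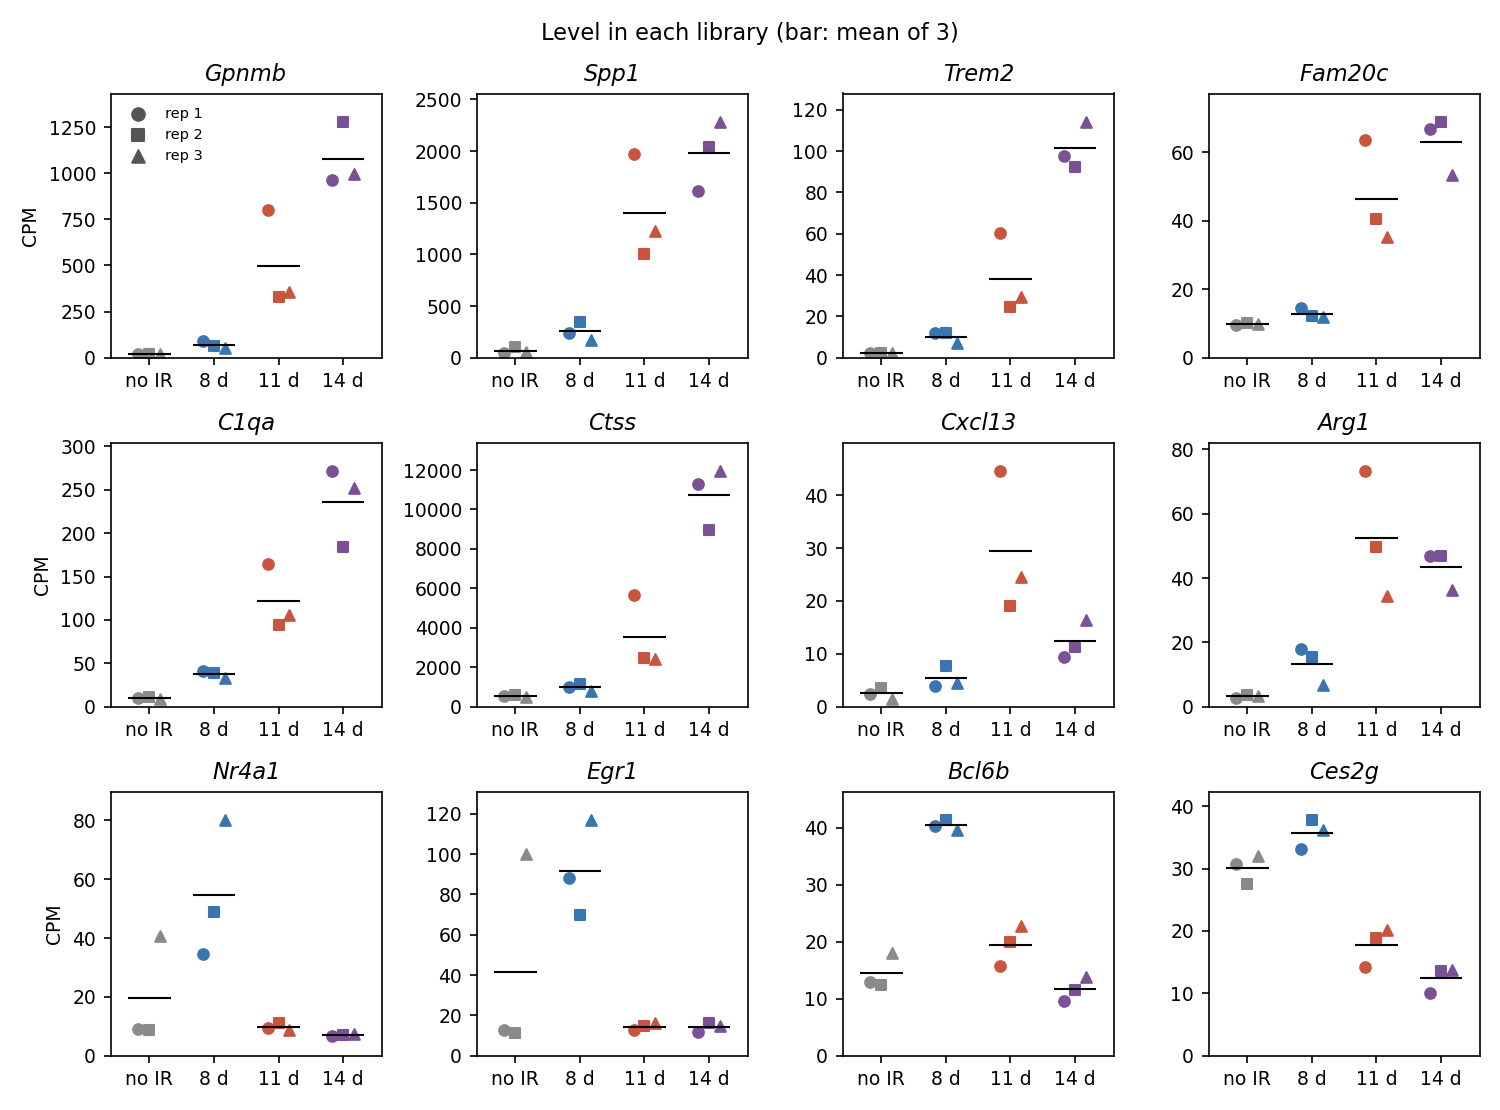
Levels of 12 genes in all 12 libraries (CPM, linear axes from 0), by group from unirradiated lung to 14 d, with 1 point per library and a bar at the group mean. Gpnmb, Spp1, Trem2, Fam20c, C1qa, Ctss, Cxcl13 and Arg1 were higher at 11 d than at 8 d in all libraries, and Nr4a1, Egr1, Bcl6b and Ces2g were lower in all.

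Interstitial macrophage markers rose in part. Of 16 markers 9 rose and none fell, with a median log2 change of 0.74, but none passed without replicate 3 of 8 d and 4 passed without replicate 1 of 11 d. All 3 chains of C1q, the recognition molecule of the classical complement pathway that tissue macrophages make, were among them. C1qa stood at 41.3, 39.3 and 33.6 CPM at 8 d and 165, 94.4 and 106 CPM at 11 d, a log2 change of 1.68 (SE 0.21, adjusted p = 0.00568, edgeR). C1qb rose by 1.64 (SE 0.23) and C1qc by 1.66 (SE 0.25), so the chains moved by near-equal amounts. The surface receptor Adgre1 (F4/80) rose by 1.42 (SE 0.24), Ms4a7 by 1.64 (SE 0.32), and the mannose receptor Mrc1 by 0.58 (SE 0.13).

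Some alveolar macrophage markers rose. Of 16, 5 rose and none fell, with a median log2 change of 0.30, and 1 rose when library size alone was used. None passed without replicate 3 of 8 d and 1 without replicate 1 of 11 d. The summed level of the list was lowered at 8 d, but not the level of every member that rose. The sum was 1768 to 2077 CPM without irradiation, 1087 to 1288 CPM at 8 d and 1574 to 1920 CPM at 11 d. Means without irradiation and at 8 d were 611 and 170 CPM for Chil3, 141 and 115 CPM for Atp6v0d2 and 35.5 and 79.1 CPM for Ctsk. Atp6v0d2, a proton pump subunit of macrophages and osteoclasts, rose by 1.11 (SE 0.17), and Pparg, the nuclear receptor that sets the alveolar macrophage programme, by 0.68 (SE 0.15). Of 15 monocyte markers tested 3 rose and 2 fell, with a median of 0.02. Those that rose were Itgam (1.49, SE 0.25), which neutrophils also express, Cd14 and Chil3 (0.78, SE 0.16), which alveolar macrophages also express. The pair that fell, Nr4a1 and Cd300e, are markers of patrolling monocytes, and Nr4a1 is an immediate early gene as well. Cd300e had means of 3.24 CPM at 8 d and 1.24 CPM at 11 d and was called in 1 of the 6 fits. These 2 were the only members lower at an unadjusted p below 0.05 (edgeR). The list also holds the patrolling markers Ace, Spn and Treml4, none of which was lower at that level. Of 12 neutrophil markers tested only the collagenase Mmp8 rose. Differences between these lists were not tested.

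Many lysosome genes rose. All 30 genes for lysosomal enzymes and the vacuolar ATPase had a log2 change above 0, 14 of them rose, and their median was 0.65. Ctsb, Ctsd, Cd63 and Atp6v0d2 are on the lipid-associated macrophage list as well, so these lists are not separate evidence. No member passed without replicate 3 of 8 d, 6 passed without replicate 1 of 11 d with a median of 0.47, and DESeq2 called 20. Per library, the median of the list relative to the 8 d mean was 0.9666 in replicate 1 of 11 d, 0.5271 in replicate 2 and 0.5404 in replicate 3, against -0.1251 to 0.1409 at 8 d. Ctss, cathepsin S, a protease that trims the invariant chain of MHC class II, stood at 975, 1160 and 807 CPM at 8 d and 5660, 2480 and 2420 CPM at 11 d, a log2 change of 1.84 (SE 0.29, adjusted p = 0.0105, edgeR). Ctsb, cathepsin B, stood at 575, 631 and 505 CPM at 8 d and 2010, 1090 and 1210 CPM at 11 d. In both proteases the groups were far apart and replicate 1 of 11 d was the highest.

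Single genes of lipid breakdown in lysosomes are given next, picked out among the rises after their values were seen. Gla, alpha-galactosidase, stood at 12, 15.1 and 10.8 CPM at 8 d and 47.3, 25.5 and 26.4 CPM at 11 d, a log2 change of 1.39 (SE 0.21, adjusted p = 0.0105, edgeR). Hexa, which acts on gangliosides, rose by 0.98, Psap, the precursor of the saposins, by 1.25, and Lipa, the acid lipase, by 0.93 (log2). Acp5, the tartrate-resistant acid phosphatase, rose by 1.45 (SE 0.19), with 17, 17.1 and 12.7 CPM at 8 d and 56.7, 36 and 34.8 CPM at 11 d.

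Of the MiT/TFE family of transcription factors, Tfec and Mitf passed and Tfeb and Tfe3 did not, a difference that was not tested. Whether any of them acts on the genes that rose was not tested either. Tfec, a family member expressed in macrophages, stood at 5.53, 6.13 and 3.21 CPM at 8 d and 22.6, 14.5 and 12.7 CPM at 11 d, a log2 change of 1.75 (SE 0.28, adjusted p = 0.0112, edgeR). Mitf rose by 1.25 (SE 0.27, adjusted p = 0.0331, edgeR) and was called in 2 of the 6 fits. Tfeb (0.17, adjusted p = 0.542) and Tfe3 (0.19, adjusted p = 0.516) did not pass the edgeR test. Flcn, folliculin, which holds Tfeb and Tfe3 in the cytoplasm, rose by 0.61 (SE 0.12), and its partner Fnip2 by 1.16 (SE 0.24). These genes were picked out after their values were seen.

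Promoter windows of RefSeq (build GRCm38.p6, 250 bases before to 50 after the start, so that the start is base 251) were searched for short motifs on both strands, a choice made with the results known. Windows were found for 12227 of the 16484 genes tested, 15412 windows in all. The M-box type motif TCATGTG stood in 2.25% of all windows, in 6.5% of the 277 windows of genes that rose and in 3.92% of the 51 windows of genes that fell. The ETS-type motif GAGGAAGT of the macrophage factor PU.1 stood in 3.11%, 9.39% and 0%, and the AP-1 motif TGANTCA in 5.95%, 10.1% and 1.96%. The E-box CACGTG stood in 9.12%, 7.22% and 7.84%, and the cAMP response element TGACGTCA in 2.76%, 2.17% and 5.88%. No test was made of these shares, and windows of 1 gene can overlap.

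Windows of 4 called genes are shown because they hold the motifs counted above beside genes that moved in opposite directions. Ctss, Gla and C1qc rose and hold both TCATGTG and GAGGAAGT, and Btg2 fell and holds TGACGTCA. Capitals mark the motifs, read on either strand, so that ACTTCCTC and CACATGA are the other strand of GAGGAAGT and TCATGTG. The windows are chr3:95526536-95526835 on the plus strand for Ctss, chrX:134600956-134601255 on the minus strand for Gla, chr4:136892865-136893164 on the minus strand for C1qc and chr1:134079106-134079405 on the minus strand for Btg2.
Ctss: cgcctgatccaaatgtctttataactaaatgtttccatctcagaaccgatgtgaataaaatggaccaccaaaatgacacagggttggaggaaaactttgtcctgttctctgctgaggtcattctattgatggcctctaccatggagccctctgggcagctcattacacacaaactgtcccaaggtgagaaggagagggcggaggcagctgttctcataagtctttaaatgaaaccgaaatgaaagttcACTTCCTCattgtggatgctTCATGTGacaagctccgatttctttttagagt
Gla: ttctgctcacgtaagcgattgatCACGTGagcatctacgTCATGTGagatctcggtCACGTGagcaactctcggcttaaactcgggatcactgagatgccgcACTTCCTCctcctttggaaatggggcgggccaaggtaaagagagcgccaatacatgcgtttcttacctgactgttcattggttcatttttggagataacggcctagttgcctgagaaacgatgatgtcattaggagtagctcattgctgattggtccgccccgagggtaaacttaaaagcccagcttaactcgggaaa
C1qc: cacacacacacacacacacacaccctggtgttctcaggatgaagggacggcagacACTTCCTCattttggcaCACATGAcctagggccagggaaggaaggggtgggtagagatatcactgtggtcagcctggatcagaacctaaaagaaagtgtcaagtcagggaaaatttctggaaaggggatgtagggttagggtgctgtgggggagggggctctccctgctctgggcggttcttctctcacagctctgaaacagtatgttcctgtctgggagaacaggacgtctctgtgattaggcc
Btg2: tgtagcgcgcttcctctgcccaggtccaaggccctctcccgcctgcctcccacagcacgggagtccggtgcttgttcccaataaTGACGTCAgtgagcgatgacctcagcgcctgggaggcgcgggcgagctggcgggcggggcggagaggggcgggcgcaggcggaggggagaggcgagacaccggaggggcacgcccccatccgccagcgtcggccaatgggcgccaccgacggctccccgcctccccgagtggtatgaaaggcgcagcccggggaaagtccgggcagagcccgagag
In Ctss the GAGGAAGT match starts at base 249 and spans the annotated start, with TCATGTG at base 269 beyond it. In Gla TCATGTG at base 40 lies between E-boxes at bases 24 and 57, and GAGGAAGT is at base 103. In C1qc GAGGAAGT at base 56 and TCATGTG at base 73 lie close together. In Btg2 TGACGTCA is at base 85. A match is a description of letters only.

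Receptors by which phagocytes sense antibody, microbes and dying cells rose in part. Of 11 Fc receptor genes 5 rose (median 0.99), of 18 Toll-like receptors and adaptors 7 rose (median 0.66), and of 19 scavenger and efferocytosis genes 5 rose and 1 fell (median 0.21). Without replicate 3 of 8 d no member of these lists rose, and without replicate 1 of 11 d 1 member of each did. Of the 11 Fc receptor genes 7 had a log2 change above 0. With 0.5 CPM added to each value, the Fc receptor medians relative to the 8 d mean were smaller. They were 0.2722, 0.485 and 0.3662 in the 11 d libraries, against -0.1835 to 0.1788 at 8 d. Fcgr2b, the inhibitory receptor for IgG, stood at 35.3, 46.7 and 30.9 CPM at 8 d and 188, 99.5 and 92.3 CPM at 11 d, a log2 change of 1.75 (SE 0.25, adjusted p = 0.0105, edgeR). The activating receptors Fcgr3 and Fcgr1 rose by 1.56 and 1.55. Fc receptor genes share stretches of sequence, and the counting may have split reads between them. Tlr2, which senses bacterial lipopeptides, stood at 27.7, 24.3 and 18.5 CPM at 8 d and 77, 53.4 and 42.6 CPM at 11 d, a log2 change of 1.30 (SE 0.21), and the endosomal Tlr13 rose by 1.38 (SE 0.27).

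Among receptors for dying cells, Msr1, the class A scavenger receptor, rose by 1.73 (SE 0.29) and the kinase Axl by 0.90 (SE 0.19). Gas6, the ligand that bridges Axl to phosphatidylserine, fell. It stood at 610, 457 and 547 CPM at 8 d and 271, 309 and 401 CPM at 11 d, a log2 change of -0.72 (SE 0.16, adjusted p = 0.0337, edgeR), and was called in 2 of the 6 fits. Receptor and ligand thus moved in opposite directions in these libraries.

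Among 19 complement genes 7 rose and none fell, while the median of the list was 0.05 (-0.04 with library size alone). The rises were in the C1q chains, the anaphylatoxin receptors C3ar1 and C5ar1, the integrin chain Itgam and factor B (Cfb). C3ar1 stood at 29.5, 24.5 and 19.9 CPM at 8 d and 168, 53.2 and 69 CPM at 11 d, a log2 change of 1.97 (SE 0.33, adjusted p = 0.0112, edgeR). Its value in replicate 1 of 11 d was far above the other 11 d libraries, which still exceeded all of 8 d.

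Of 10 phagocyte oxidase, nitric oxide and arginase genes 5 rose (median 0.89), with Cybb, the catalytic subunit, at 1.20 (SE 0.24). Arg1, arginase, stood at 17.9, 15.4 and 6.79 CPM at 8 d and 73.3, 49.6 and 34.3 CPM at 11 d, a log2 change of 1.97 (SE 0.31, adjusted p = 0.0105, edgeR). Of 24 NRF2 target and glutathione genes 3 rose and none fell, with a median of 0.18. One of them, Hmox1, which opens the haem ring, stood at 76.5, 86.1 and 67.1 CPM at 8 d and 217, 166 and 152 CPM at 11 d, a log2 change of 1.22 (SE 0.15, adjusted p = 0.00568, edgeR). The spread of Hmox1 within each group was small beside the difference. The ferritin chains Fth1 and Ftl1 were the other members that rose, by 0.87 and 0.82.

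Some secreted inflammatory genes rose. Of 24 inflammatory chemokines 5 rose with a median of 0.86 (DESeq2 called 11), of 20 cytokines 4 rose with a median of 0.15, and of 20 acute-phase genes 5 rose with a median of 0.47. None of the acute-phase genes passed without replicate 3 of 8 d or without replicate 1 of 11 d. Of the chemokines that rose, Cxcl13 passed without replicate 1 of 11 d, and Ccl3, Ccl6, Ccl8 and Ccl9 did not. Among the cytokines Il1rn passed in that fit, and Il1a and Il12b did not. Cxcl13, the B cell attractant, stood at 3.94, 7.7 and 4.42 CPM at 8 d and 44.6, 19.1 and 24.5 CPM at 11 d, a log2 change of 2.46 (SE 0.36, adjusted p = 0.0105, edgeR). Its mean at 14 d was 12.4 CPM. Ccl2, the monocyte attractant, stood at 19.8, 35.7 and 18.7 CPM at 8 d and 64.9, 51.7 and 38.5 CPM at 11 d. These groups did not overlap, but Ccl2 did not pass the edgeR test (log2 change 1.07, adjusted p = 0.0609).

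Il1rn, the antagonist of the IL-1 receptor, stood at 70.5, 61.6 and 46.9 CPM at 8 d and 188, 126 and 105 CPM at 11 d, a log2 change of 1.23 (SE 0.20, adjusted p = 0.0112, edgeR). The agonist Il1a rose by 1.02 (SE 0.19) and Tnf by 1.29 (SE 0.30). Some genes that rose were lower again at 14 d. Clec4e, the receptor Mincle, stood at 23, 28.9 and 9.59 CPM at 8 d and 116, 76.9 and 58.4 CPM at 11 d, with a mean of 14 CPM at 14 d. Saa3, an acute-phase apolipoprotein, stood at 32.4, 95 and 28.9 CPM at 8 d, 265, 198 and 179 CPM at 11 d and 46.1 CPM on average at 14 d. Irg1, which makes itaconate, stood at 12.2, 10.7 and 6.17 CPM at 8 d, 50.1, 35.4 and 26 CPM at 11 d and 4.4 CPM on average at 14 d. Log2 changes from 8 d to 11 d were 2.03 (SE 0.33), 2.04 (SE 0.41) and 1.94 (SE 0.37) for the 3 genes in this order. From 11 d to 14 d they fell by 2.58, 2.22 and 3.09 on the log2 scale (adjusted p = 0.00369, 0.0182 and 0.00328, edgeR), a contrast that shares the 11 d libraries. The acid glycoprotein genes Orm1 (1.87) and Orm2 (2.96) rose too, but are near-identical copies between which reads may have been split.

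Of 19 T cell markers tested 3 rose (Foxp3, Ctla4 and Icos) with a median log2 change of 0.41, and all 3 are genes of regulatory or activated T cells. Foxp3 and Icos were each called in 2 of the 6 fits that leave out 1 library, and Ctla4 in 3. None of the 3 passed without replicate 3 of 8 d or without replicate 1 of 11 d. Foxp3, the regulatory T cell factor, stood at 9.56, 7.21 and 7.29 CPM at 8 d and 16.1, 13.7 and 13.2 CPM at 11 d, a log2 change of 0.84 (SE 0.18, adjusted p = 0.0324, edgeR). Ctla4, an inhibitory receptor, stood at 1.64, 2.07 and 1.71 CPM and then at 7.35, 4.41 and 4.61 CPM. Of 17 immune checkpoint genes 6 rose, with a median of 0.81. Cd274 (PD-L1) stood at 70, 58 and 54.3 CPM at 8 d and 140, 111 and 98.5 CPM at 11 d, a log2 change of 0.94 (SE 0.16), and its receptor Pdcd1 rose by 1.72 (SE 0.34). No member of the checkpoint list rose without replicate 3 of 8 d.

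Of 15 B cell markers tested only Cd79b, a chain of the B cell receptor, passed, and it fell by 1.05 on the log2 scale (SE 0.24). It passed in 0 of the 6 fits that leave out 1 library, and the median of the list was -0.54. Of 12 mast cell and basophil markers tested 2 rose, the proteases Mcpt2 and Mcpt1, which are similar in sequence. The median log2 change of this list was 1.36, the highest of the 69 lists, 10 of the 12 were above 0 and 7 were higher at an unadjusted p below 0.05 (edgeR). The summed level of the list moved little, from 151.9 to 169.8 CPM at 8 d to 168.8 to 179.7 CPM at 11 d, with overlap. Without irradiation it was 314 to 361.7 CPM. With 0.5 CPM added to each value, the list medians relative to the 8 d mean were 0.9567, 0.5151 and 0.5255 in the 11 d libraries. DESeq2 called 4. Without replicate 3 of 8 d none passed and without replicate 1 of 11 d 1 passed, with medians of 1.24 and 1.19. Mcpt2 stood at 0.609, 1.49 and 0.542 CPM at 8 d and 9.85, 6.56 and 3.37 CPM at 11 d, a log2 change of 2.91 (SE 0.45, adjusted p = 0.0112, edgeR). Retnla, a secreted protein of alternatively activated macrophages and epithelium, rose by 1.32 (SE 0.26).

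All 25 mitosis genes had a log2 change above 0, with a median of 0.70, but only Tpx2 and Ube2c passed, and none passed without replicate 3 of 8 d or without replicate 1 of 11 d. Tpx2, a spindle assembly factor, stood at 19.8, 19.8 and 18 CPM at 8 d and 40.3, 25.9 and 32.3 CPM at 11 d. Foxm1, the transcription factor of late cell cycle genes, rose by 1.10 (SE 0.21). Mki67 (0.75, adjusted p = 0.0854), Cdk1 (0.72, adjusted p = 0.0782) and Top2a (0.71, adjusted p = 0.0518) did not pass the edgeR test, and DESeq2 called 12 of the list.

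Immediate early genes fell in part, and among the 69 lists theirs held the most falls. Of 21 genes 5 fell and none rose, with a median log2 change of -0.54. None passed without replicate 3 of 8 d or without replicate 1 of 11 d, and 5 passed without replicate 1 of 8 d, 4 of them among the 5 that fell with all libraries. Nr4a1, an orphan nuclear receptor, stood at 34.5, 48.7 and 80.2 CPM at 8 d and 9.55, 11.2 and 8.87 CPM at 11 d, a log2 change of -2.47 (SE 0.49, adjusted p = 0.021, edgeR). Egr1, a zinc finger factor, stood at 88.3, 69.7 and 117 CPM at 8 d and 12.8, 14.5 and 16.1 CPM at 11 d, a log2 change of -2.67 (SE 0.62, adjusted p = 0.0429, edgeR). Egr1 was called in 1 of the 6 fits, that without replicate 2 of 8 d, and had an adjusted p of 0.0834 without replicate 1 of 8 d (edgeR). In both genes replicate 3 of 8 d was the highest of the 6 and the 11 d libraries lay close together. Egr1 stood at 41.4 ± 50.9 CPM without irradiation (SD, n = 3), a spread larger than its mean.

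The other falls in this list were smaller. Btg2, an antiproliferative gene that p53 also induces, stood at 144, 201 and 198 CPM at 8 d and 76.1, 99.1 and 101 CPM at 11 d, a log2 change of -0.98 (SE 0.17, adjusted p = 0.0132, edgeR). Ier2 fell by 1.02 on the log2 scale (SE 0.20) and Dusp1, a phosphatase of MAP kinases, by 0.97 (SE 0.22). Btg2 and Ier2 were each called in 4 of the 6 fits that leave out 1 library, and Dusp1 in 1. Dusp1 spread more widely at 8 d, at 64.2, 123 and 119 CPM. Fos, with a log2 change of -1.38, did not pass (adjusted p = 0.188, edgeR). Cyr61, a matricellular target of YAP from the provisional matrix list, stood at 184, 214 and 275 CPM at 8 d and 54.3, 75.6 and 98.4 CPM at 11 d, a log2 change of -1.56 (SE 0.34). The unirradiated libraries were split in these genes as well. They stood at 58.9, 53.7 and 152 CPM for Cyr61 and 12.6, 9.82 and 60.9 CPM for Fos.

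Of 30 p53 target genes none rose and 2 fell, Btg2 and Plk2, with a median of -0.29. At an unadjusted p below 0.05 (edgeR) 12 were lower and 1 was higher, and 5 of the 30 had a log2 change above 0. The groups did not overlap for 15 of the 30, against 18.3% of all genes tested. Plk2, a stress-induced kinase, fell by 1.0 on the log2 scale (SE 0.23), and Btg2 is on the immediate early list as well. Cdkn1a, the p53-induced cell cycle inhibitor, stood at 284, 294 and 282 CPM at 8 d and 171, 193 and 260 CPM at 11 d. Its groups did not overlap, but the change did not pass (log2 -0.46, adjusted p = 0.176, edgeR). Mdm2 (-0.27) and Gdf15 (-0.79) did not pass either.

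Single vascular and stromal genes fell while their marker lists gave few or no calls. Of 24 endothelial markers tested none passed, with a median of -0.34 and 1 gene above 0. At an unadjusted p below 0.05 (edgeR) 10 of them were lower and 1 was higher, and DESeq2 called 2 and limma-voom 0. Of 16 alveolar fibroblast markers none passed, with a median of -0.45, while 5 were lower at an unadjusted p below 0.05 (edgeR), DESeq2 called 2 and limma-voom 0. Bcl6b, a repressor enriched in endothelium, stood at 40.3, 41.4 and 39.7 CPM at 8 d and 15.7, 19.9 and 22.7 CPM at 11 d, a log2 change of -1.06 (SE 0.18, adjusted p = 0.0118, edgeR). Its 8 d libraries were almost equal and all 11 d libraries lay well below them. Cd34, a sialomucin of capillary endothelium and adventitial fibroblasts, stood at 656, 690 and 617 CPM at 8 d and 328, 324 and 500 CPM at 11 d, a log2 change of -0.77 (SE 0.18) that passed in 1 of the 6 fits. Unirradiated means were 14.5 ± 3.15 CPM for Bcl6b and 215 ± 43 CPM for Cd34 (SD, n = 3), so these genes fell from a raised 8 d level. The summed endothelial list did not share that 8 d peak. It was 9876 to 10230 CPM without irradiation, 5043 to 5457 CPM at 8 d and 3361 to 4778 CPM at 11 d. Pcdh12, an endothelial cadherin (-0.86, SE 0.18), Heyl, a Notch target (-0.79, SE 0.18), and Spry1, a feedback inhibitor of receptor tyrosine kinases (-0.88, SE 0.15), also fell. Scn7a, a sodium channel gene, stood at 377, 348 and 404 CPM at 8 d and 205, 204 and 240 CPM at 11 d, a log2 change of -0.80 (SE 0.13, adjusted p = 0.0114, edgeR).

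Carboxylesterases hydrolyse esters of drugs and lipids. Of 11 genes tested with a carboxylesterase symbol, a group put together after the values were seen, 3 fell, none rose and 10 had a log2 change below 0, with a median of -0.76. Ces2g stood at 33.2, 37.8 and 36.3 CPM at 8 d and 14.2, 18.8 and 20.2 CPM at 11 d, a log2 change of -1.01 (SE 0.16, adjusted p = 0.0105, edgeR). It was called in 5 of the 6 fits, and over all alternatives its adjusted p ran from 9.11e-07 to 0.0873, the last without replicate 3 of 8 d. Ces2e stood at 89.8, 124 and 95.9 CPM at 8 d and 25.2, 42.5 and 62.3 CPM at 11 d, a log2 change of -1.25 (SE 0.28) called in 1 of the 6 fits, and Ces1f fell by 0.93 (log2) with a call in 0 of them. The genes of this family are close copies, and reads may have been split between them.

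Of 19 coagulation and fibrinolysis genes 2 rose, F10 and F7, and none fell, with a median log2 change of 0.05 (-0.04 with library size alone). None passed without replicate 3 of 8 d or without replicate 1 of 11 d. The fibrinogen chains Fga and Fgg, which are usually made in liver and stand on the provisional matrix list, rose by 1.93 and 1.52 in log2 from low levels. Fgg stood at 3.28, 2.3 and 4.08 CPM at 8 d and 6.17, 8.44 and 13.3 CPM at 11 d and was called in 5 of the 6 fits. It is 1 of the 7 rises in which replicate 3 of 11 d was the highest library. F10, coagulation factor X, which macrophages also make, stood at 54.6, 35.9 and 19.9 CPM at 8 d and 216, 125 and 86.4 CPM at 11 d, a log2 change of 1.95 (SE 0.36, adjusted p = 0.016, edgeR).

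Other lists gave no calls in edgeR. None of 26 type I interferon-stimulated genes passed, with a median log2 change of 0.43. Of these 9 were higher at an unadjusted p below 0.05 (edgeR), DESeq2 called 1 and limma-voom 0. None of 20 alveolar type 2 markers (median -0.03), 17 alveolar type 1 markers (median -0.14) or 25 collagen and fibrillar matrix genes (median -0.25) passed. At an unadjusted p below 0.05 (edgeR) there were 4, 2 and 7 of them, DESeq2 called 2, 1 and 3, and limma-voom 0 in each list. None of 30 cytosolic ribosomal proteins passed in any of the 3 tools or at an unadjusted p below 0.05 (median 0.15). Of 9 mesothelial markers tested none passed (median -0.70), while 7 were lower at an unadjusted p below 0.05 (edgeR), DESeq2 called 1 and limma-voom 0. The medians of the skeletal and cardiac muscle markers (-1.0), the fat tissue markers (-0.55) and the club cell markers (-0.41) moved to 0.18, 0.36 and -0.01 when replicate 3 of 8 d was left out, so these negative medians rest on that library.

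**Figure D5:**
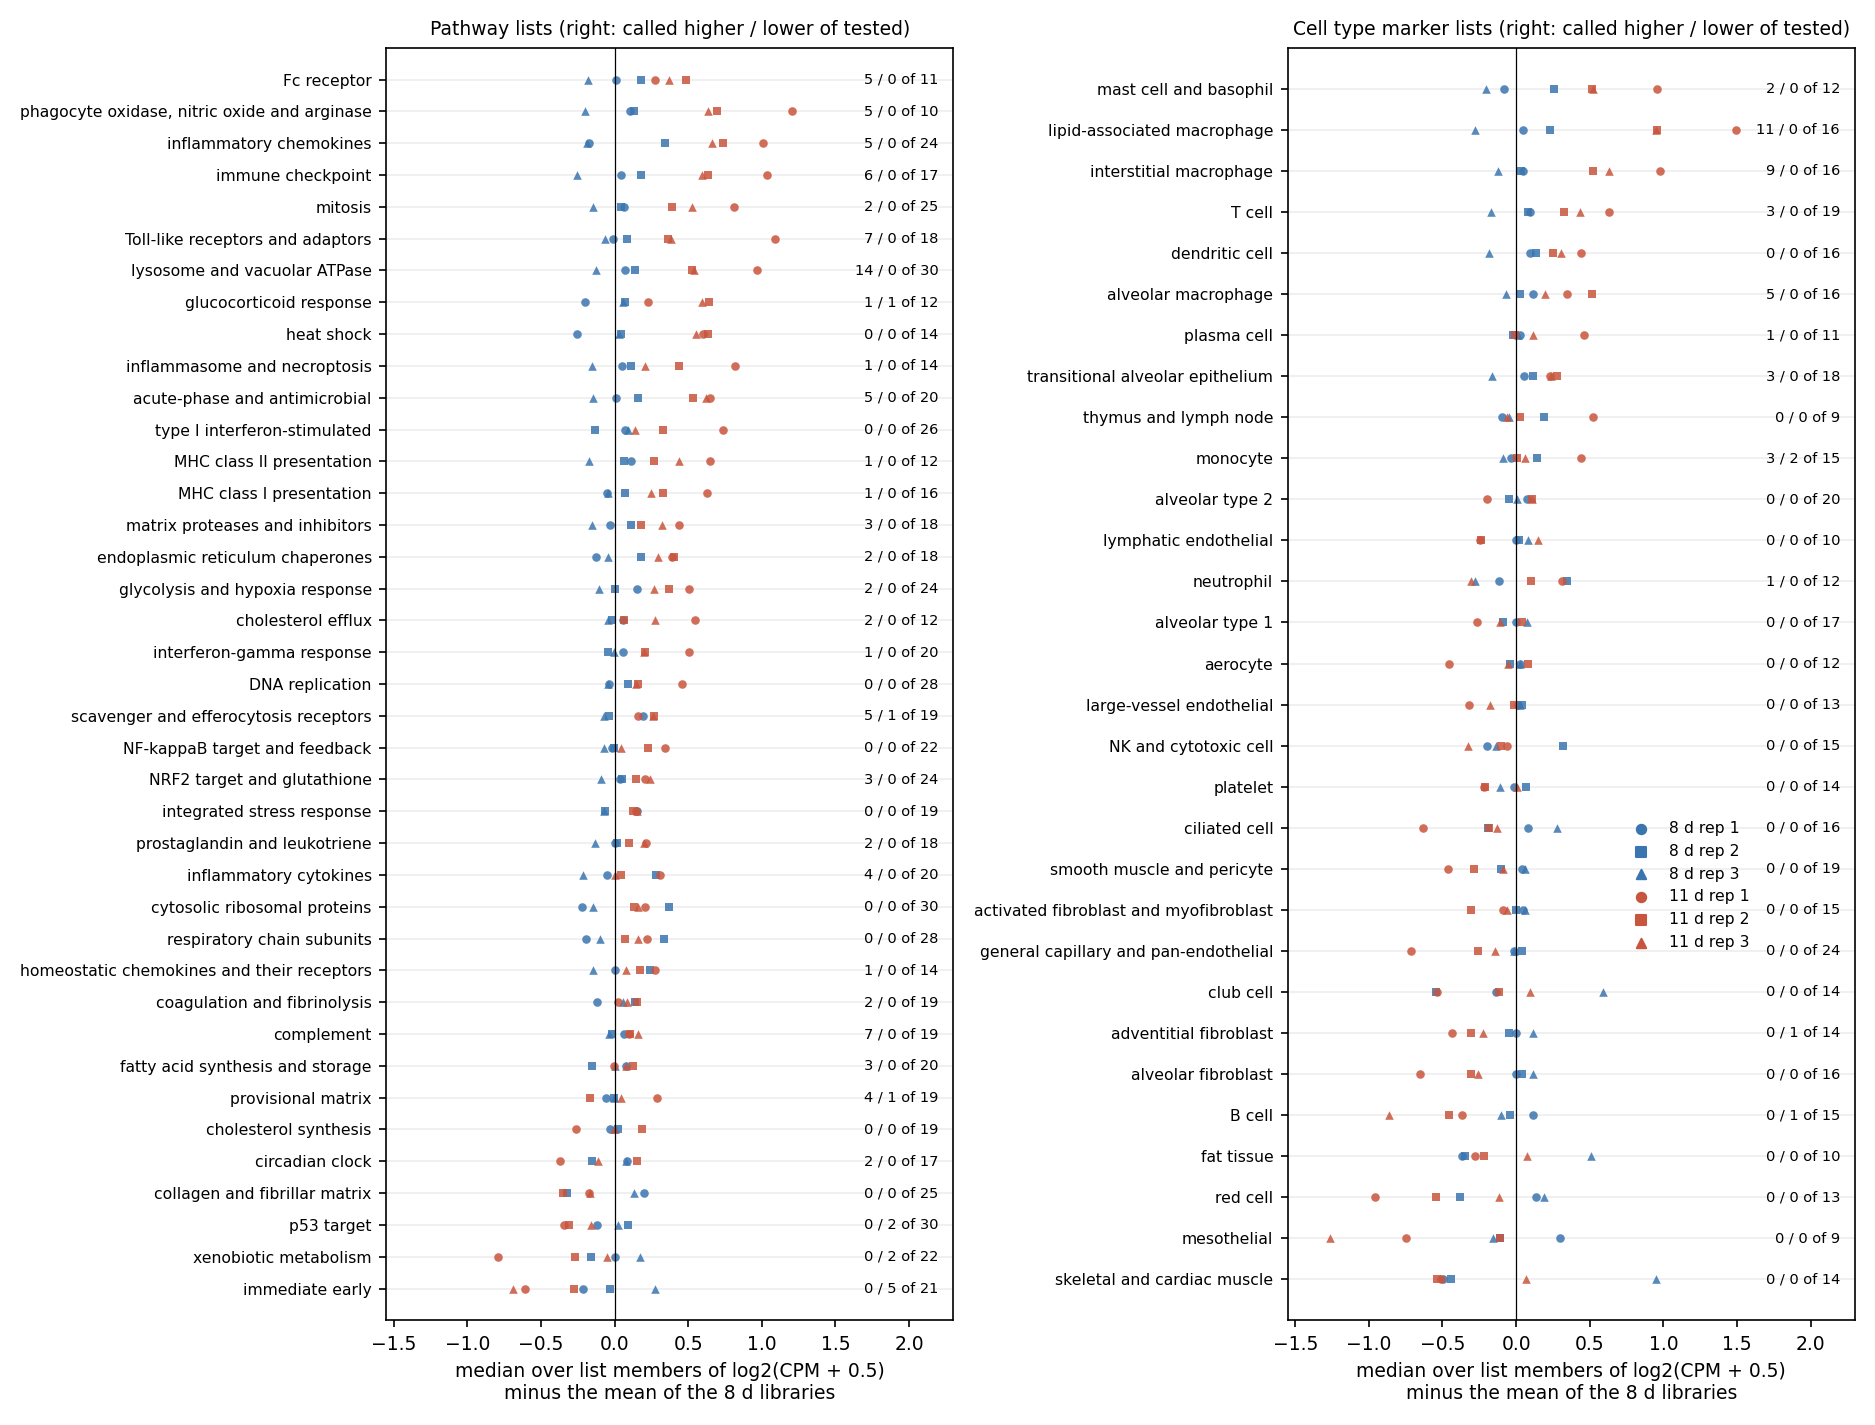
Median log2 level of gene lists in each of the 6 libraries, relative to the mean of the 8 d libraries, with 1 point per library and the number of members called higher and lower at right. In the lysosome list the 11 d libraries lay at 0.5271 to 0.9666 and the 8 d libraries at -0.1251 to 0.1409.

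The levels of the same genes in the other groups are given side by side, without a test, since the comparisons share libraries. Relative to the 8 d mean, the median log2 level of the 288 rises lay between -0.729 and -0.66 in the unirradiated libraries and between 1.15 and 1.35 at 14 d. For the 65 falls it was -0.232 to 0.0269 without irradiation, -0.979 to -0.792 at 11 d and -0.928 to -0.752 at 14 d. By these medians the genes that rose were lowest in unirradiated lung, and the genes that fell were at 8 d near the unirradiated level and below it at 11 d and 14 d. Single genes departed from these medians, and their number was not counted. Among falls, Cd34 had means of 215, 655 and 384 CPM without irradiation, at 8 d and at 11 d. In the same order Ces2e had 4.56, 103 and 43.3 CPM, so these falls ended above the unirradiated mean. Ces1f, with 16.8, 8.36 and 4.4 CPM, was already below it at 8 d. Among rises, Chil3 had 611, 170 and 290 CPM and was highest without irradiation.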

How the data were processed

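RNA was measured in 12 mouse lung libraries, of which 6 are compared here. NEBNext Ultra II Directional libraries were prepared from 1.3 µg of total RNA isolated by Trizol, per the labels' protocols. Reads were aligned with TopHat to mm10, per the submitters' processing notes. The values are the authors' deposited counts per gene symbol, in tables of 23282 lines. Of TopHat's version, the counting program, the annotation and the use of strand nothing is given in the sources used here, so reads of a gene and its antisense partner may not be told apart. Counts of the 35 symbols found on several lines were summed, which left 23238 symbols, and 22197 matched GENCODE M21, the source of coordinates.

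All 12 libraries were fitted with edgeR 4.0.16 (R 4.3.3, TMM scaling, filterByExpr by group, quasi-likelihood F test), with 16484 genes kept and 6754 removed. Genes with a Benjamini-Hochberg adjusted p under 0.05 are the calls, and are said to have risen or fallen. SE is the absolute log2 change over the square root of F. TMM-scaled library sizes were also used for CPM. Alternatives were each library left out, other scalings, filters and thresholds, a replicate block, fits of 6 or 9 libraries, DESeq2 1.42.0 and limma-voom (limma 3.58.1), and, added after seeing the data, a pair of libraries left out and DESeq2 and limma-voom without 1 library. The edgeR script was tested on simulated data.

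The 69 gene lists and the members were chosen with earlier results of these data known. The lists hold 1260 entries for 1125 distinct genes, so the same called gene can be counted in several lists. Named genes were the 12 highest and 12 lowest called changes with at least 5 CPM and no overlap, up to 4 called members of each list (2 of lowest p where none was called), the 6 of lowest p called in all fits that leave out 1 library, the 5 called in at most 2 of them, and checks of tissue. Not all are printed. Others, such as Mitf, Tfeb, Tfe3, Fnip2, Gas6, Fos, Ccl2, Cd36, Ces1f, Ces2g, Cdk1, Mki67, Foxm1, Retnla and Spry1, were chosen after their values were seen.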

Additional observations from a re-analysis of the deposited data

How the results depend on the processing

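Of 353 calls, median-of-ratios scaling, removal of Rn45s and haemoglobin genes, both other filters, limma-voom and robust dispersion left the count within 1.5 times, and none of the 154 named called genes changed sign under any alternative, which non-overlapping groups fix for the fits that leave out 1 library. Of 90 named genes that had not passed, 13 changed sign under at least 1 alternative, among them Gm22109 (3.21 to -0.22), Bpifa1 (-1.72 to 2.99) and Myh6 (-1.21 to 1.75), each without 1 library. Library size alone gave 186 rises and 121 falls. A fit of only the 6 libraries gave 143 calls (118 higher, 25 lower), DESeq2 857 (600, 257) and limma-voom with sample quality weights 1468 (890, 578). An adjusted p below 0.01 left 5 (5, 0), and 2-fold 182 (155, 27). Leaving out 1 library gave 2 to 545 calls, 2 to 355 rises and 0 to 190 falls. Both replicate 2 of 8 d and replicate 1 of 11 d out gave 116 (101, 15). Limma-voom gave 2 (2, 0) without replicate 3 of 8 d and 66 (63, 3) without replicate 1 of 11 d. The cause of these moves was not tested, beyond the fewer samples in the last fits. The replicate block gave 391 calls (320, 71), 302 of them shared, and same-numbered libraries correlated at -0.12 to 0.104, with 2 of 6 correlating best with their own number, so the numbers were not taken as pairs. Of the named called genes 12 lost the call under the block, 152 without replicate 3 of 8 d and 111 without replicate 1 of 11 d.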

Other observations

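Chaperone genes lay higher at 11 d without passing in number. Of 14 heat shock genes none passed in edgeR, 10 were higher at an unadjusted p below 0.05, DESeq2 called 5 and limma-voom 0, and the median log2 change was 0.55. Of 18 endoplasmic reticulum chaperones 2 rose, with a median of 0.40. Sdf2l1, which works with the chaperone BiP, stood at 8.57, 14.1 and 10.4 CPM at 8 d and 27, 22.3 and 19.6 CPM at 11 d, a log2 change of 1.06 (SE 0.18, adjusted p = 0.012, edgeR). Edem1, which directs misfolded proteins to degradation, rose by 0.57 (SE 0.14). Of 12 glucocorticoid response genes Sgk1, a kinase, rose by 0.75 (SE 0.17) and Dusp1 fell. Fkbp5, the chaperone that is a standard marker of glucocorticoid action, stood at 44.6, 27.6 and 25.7 CPM at 8 d and 67.4, 91.6 and 99.2 CPM at 11 d. It was lowest at 11 d in replicate 1, the library that was highest for most rises, and did not pass (log2 1.40, adjusted p = 0.0718, edgeR). The unirradiated libraries spread as widely for Fkbp5, at 139, 140 and 35.4 CPM.

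Of 8 genes tested between Gamt and Adamtsl5 on chromosome 10, these included, 3 fell and none rose. The median log2 change of the 8 was -0.27, 2 were above 0, and the 5 that did not pass lay between -0.34 and 0.33. Pcsk4, a proprotein convertase (mm10, 80321283 to 80329498, minus strand), stood at 23.3, 21.2 and 30.2 CPM at 8 d and 5.54, 3.89 and 8.92 CPM at 11 d, a log2 change of -2.03 (SE 0.45, adjusted p = 0.0341, edgeR). Adamtsl5, an extracellular matrix gene (80339110 to 80348412, minus strand), fell by 1.44 on the log2 scale (SE 0.29), and Gamt, an enzyme of creatine synthesis (80258151 to 80261012, minus strand), by 1.39 (SE 0.33). At 14 d the same genes stood at 26.8, 6.6 and 9.39 CPM (Pcsk4), 28.5, 10.7 and 12.2 CPM (Adamtsl5) and 13, 4.64 and 5.47 CPM (Gamt). In each of them replicate 1 of 14 d was at the 8 d level and the other 14 d libraries at the 11 d level. The stretch was bounded by genes noticed after their values were seen.

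Small ribosomal RNA genes were high in 1 library. Gm22109, which GENCODE M21 types as rRNA (chromosome 8, 123606613 to 123606731, minus strand), stood at 703 CPM in replicate 2 of 11 d, at 9.76 and 36.9 CPM in the other 11 d libraries and at 15.9 to 33.5 CPM at 8 d. Its neighbours Gm22291, Gm23284, Gm26391, Gm25018 and Gm25212 followed it, at 352, 234, 236, 117 and 117 CPM in that library, and the last pair had identical values in every library. The log2 change of Gm22109 was 3.21 (SE 1.09, adjusted p = 0.151, edgeR) and -0.22 without that library. The same library had the highest share of Rn45s, 6.273% of its counts.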
